A study of Homo sapiens with 18 samples.

Results

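The 10 genes CDK7, CDK12, CDK13, CCNK, ABL1, SSU72, CTDP1, RPAP2, CTDSP1 and CTDSP2 encode enzymes, and 1 cyclin, that act on the C-terminal domain (CTD) of RNA polymerase II (Pol II). They were taken by name, 10 of 19974 protein-coding genes of RefSeq GRCh38, each from its start to its end with 5 kb on either side. Every peak sharing at least 1 bp with such a window was collected from 16 immunoprecipitated libraries of HCT116 INTS11-AID cells. HCT116 is a line from a human colon cancer, and in these cells INTS11, the endonuclease of the Integrator complex, carries a degron tag. IAA is auxin, added to have the tagged protein degraded, and all groups, Control included, carry the tag. The numbered libraries are 2 each of Pol II IAA and Pol II Control, Tyr1P IAA and Tyr1P Control, and Ser2P IAA and Ser2P Control, where Tyr1P and Ser2P are the CTD phosphorylated at tyrosine 1 or serine 2. A further 4 unnumbered Pol II libraries are labelled EGF, IAA, IAA+EGF and Control, and 2 inputs had no antibody. A protocol text shared by all samples gives 14 h without serum, 500 µM IAA for 1 h, EGF at 100 ng/µl for 30 min and interferon beta at 2000 U for 1 h, without saying which library received which agent. Neither the number of clones nor the source of replicates is stated, so the spread between replicates may be technical.

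The CTD is a tail of repeated heptads whose tyrosine, serine and threonine residues are phosphorylated and dephosphorylated as Pol II moves along a gene. CDK7, the kinase of TFIIH, acts on serines 5 and 7 at the promoter, CDK12 and CDK13 pair with cyclin K (CCNK) and act on serine 2 during elongation, and ABL1 is a kinase of tyrosine 1. SSU72 removes phosphate from serines 5 and 7, CTDP1 (FCP1) acts chiefly on serine 2, RPAP2 acts on serine 5, and CTDSP1 and CTDSP2 are small CTD phosphatases. The values below are the marks on the genes of these enzymes and not the enzymes' own activity.

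Promoters are printed for 4 members whose start peaks carry the results on peak position and height. Each runs from 250 bases before to 50 after a start listed by RefSeq (GRCh38.p14), 5′ to 3′ on the gene's own strand. Capitals mark TCTCGCGA in CDK12 and CCAAT or GGGCGG in the others, on either strand, with overlapping matches kept. CDK12 stands for a start at which the Pol II summit lay farther downstream in both IAA libraries, at chr17:39461236-39461535, plus strand.
CDK12: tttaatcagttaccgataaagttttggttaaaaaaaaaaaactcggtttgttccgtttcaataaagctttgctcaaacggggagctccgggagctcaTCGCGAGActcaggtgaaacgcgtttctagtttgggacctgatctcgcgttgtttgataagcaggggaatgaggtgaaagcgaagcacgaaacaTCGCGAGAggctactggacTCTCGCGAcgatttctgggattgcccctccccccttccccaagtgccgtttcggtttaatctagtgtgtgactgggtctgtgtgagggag
CCNK had its Pol II start peak higher in both IAA libraries, and its window is chr14:99481159-99481458, plus strand.
CCNK: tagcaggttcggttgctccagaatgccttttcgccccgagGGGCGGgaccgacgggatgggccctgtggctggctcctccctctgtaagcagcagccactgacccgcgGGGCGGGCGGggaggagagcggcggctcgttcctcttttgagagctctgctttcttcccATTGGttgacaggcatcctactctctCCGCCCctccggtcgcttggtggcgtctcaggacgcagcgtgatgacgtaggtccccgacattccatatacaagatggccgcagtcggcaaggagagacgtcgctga
ABL1 is shown at its downstream start, where Pol II was lower in both IAA libraries, at chr9:130835004-130835303, plus strand.
ABL1: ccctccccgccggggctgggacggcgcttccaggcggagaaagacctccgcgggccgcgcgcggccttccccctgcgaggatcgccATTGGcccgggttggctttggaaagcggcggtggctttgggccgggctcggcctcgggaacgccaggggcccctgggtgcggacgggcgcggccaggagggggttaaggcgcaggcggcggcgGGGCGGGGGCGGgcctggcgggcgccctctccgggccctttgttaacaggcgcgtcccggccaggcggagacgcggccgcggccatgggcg
CTDSP2 has its highest Pol II and Tyr1P peaks upstream of the printed window, chr12:57846680-57846979, minus strand.
CTDSP2: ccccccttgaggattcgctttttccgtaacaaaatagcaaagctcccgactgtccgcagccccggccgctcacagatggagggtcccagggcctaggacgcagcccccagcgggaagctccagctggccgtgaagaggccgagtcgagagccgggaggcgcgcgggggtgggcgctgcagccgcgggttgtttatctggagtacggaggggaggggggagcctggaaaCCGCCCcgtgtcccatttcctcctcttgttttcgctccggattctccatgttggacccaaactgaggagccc
All 10 members matched the promoter table, with 19 listed promoters among them. TCTCGCGA, searched after the CDK12 sequence had been seen, occurs 3 times in CDK12, first bases at −153, −59 and −40, and in 1.58% of 22132 promoters. CCAAT is present in CCNK, CTDP1 and ABL1 and in 34.6% of all promoters, and GGGCGG is present in 7 members and in 56.3%. TATAAA is present in CTDSP1 and in 9.46% of all promoters. CCGGAAG was found in no member promoter, against 12.8% of all promoters, and a perfect NRF1 or YY1 consensus was likewise in none, against 1.5% and 1.69%. These matches describe letters in the windows. GC content was 49% in the CDK12 window, 63.3% in CCNK, 64.7% in CTDSP2 and 78.3% in ABL1, against a median of 62.3% over all promoters.

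CTDSP1 and CTDSP2 also host microRNAs inside their transcribed regions, MIR26B and MIR26A2. Their 5p products are shown because they share a seed, bases 2 to 8, in capitals. The first lies at chr2:218402657-218402677 on the plus strand and the other at chr12:57824658-57824679 on the minus strand.
hsa-miR-26b-5p: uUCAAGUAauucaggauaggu
hsa-miR-26a-5p: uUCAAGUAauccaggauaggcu
The shared seed is UCAAGUA. No peak of any of the 16 immunoprecipitated libraries lay over either hairpin. The nearest Ser2P summit to MIR26A2 was 2566 and 875 bp away in the IAA libraries and 5738 and 6209 bp away in the Control libraries. For MIR26B it was 2951 and 2935 bp away in the IAA libraries and 2976 and 3735 bp away in the Control libraries. The Ser2P IAA lists were the longer ones, and such distances were not computed for other sites.

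The lists differed in length and depth. Ser2P IAA libraries held 99476 and 88987 peaks, against 37442 and 15420 in the Ser2P Control libraries, and the other immunoprecipitated lists held 18263 to 38821. Depth, estimated from the lists as background fragments per kb, was 9.34 and 10.5 in Ser2P IAA and 13.6 and 3.28 in Ser2P Control, and 2.94 to 8.05 in the other immunoprecipitated libraries. The 2 input lists held 1579 and 1004 peaks and none at a member. Of 10 colon epithelial marker genes, 8 had a Pol II peak near an end in all 8 Pol II lists, and CDH17 and VIL1 had one in 0. Of the markers of other tissues, SYT1 (neuron) had one in 8 lists, RBFOX3 (neuron) and SPI1 (blood) in 7, HBB in 2 and CD3E in 1, while the remaining 9 had one in 0. For 2 unnumbered libraries, label and file disagree: the list of the library labelled IAA is named for EGF, and that of the library labelled EGF is named for IAA. They are therefore called the library labelled IAA and the library labelled EGF.

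Ser2P peaks were more numerous over the member genes in the IAA libraries. The 10 genes together held 108 and 99 Ser2P peaks in IAA libraries, against 36 and 10 in Control libraries. Inside the genes, more than 1 kb from either end and from listed starts, there were 78 and 69 peaks in IAA libraries and 12 and 1 in Control libraries. Near starts the counts were 15 and 15 in IAA libraries and 15 and 7 in Control libraries. Scaled to lists of 10000 peaks, members held 10.9 and 11.1 in IAA libraries against 9.61 and 6.49 in Control libraries. Both IAA libraries exceeded both Control libraries for 9 of 10 members, a call met by 51.4% of all 19974 genes, and for none were they lower, which held for 0.416% of all genes. Among genes of at least 20 kb with a Pol II peak near an end in both Control lists the call was met by 75.3%, and by all 8 members in that class. The median difference in peak number was 5.75 over the members, 1.5 over all genes and 4 over that longer class.

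The call was rarer in lists of equal length. With all 4 Ser2P lists reduced to their 15420 strongest peaks, members held 15 and 14 peaks in IAA libraries and 12 and 10 in Control libraries. ABL1 was then the 1 member with more peaks in both IAA libraries, against 6.25% of all genes. The lowest −log10 q kept was 24.6 and 24.7 in the IAA lists and 10.6 and 1.33 in the Control lists. The part of list length and depth in the excess was not tested. With 2 libraries against 2, a two-sided exact permutation test cannot give a p below 0.333 for any gene, so each comparison is given by whether the libraries overlap.

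**Figure D1:**
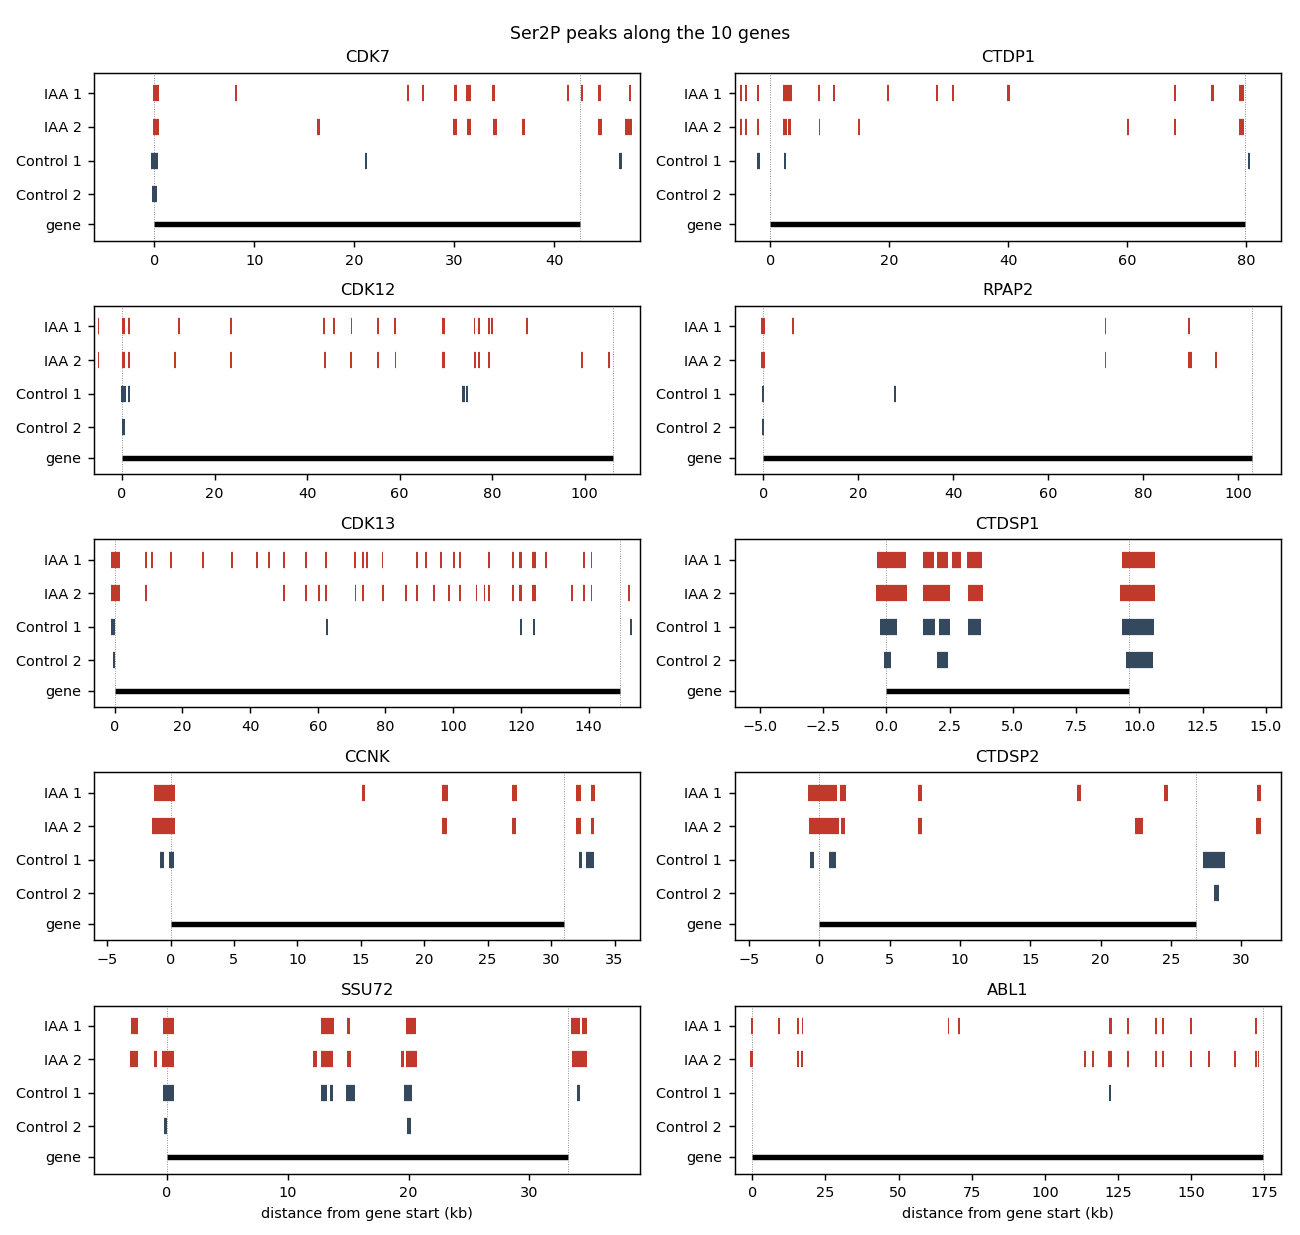
Ser2P peaks along the 10 genes, with distance from the gene start in kb on the horizontal axis, the 2 IAA libraries (red) above the 2 Control libraries (blue) and the gene as a black bar. Boxes are peaks, those too narrow to see being widened, and CDK13, with 27 and 24 peaks in IAA libraries against 5 and 1 in Control libraries, carries narrow peaks at many places along the gene.

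Among the kinases, CDK13 showed the largest numbers. CDK13 (chromosome 7, 39950256 to 40099580) held 27 and 24 Ser2P peaks in IAA libraries, against 5 and 1 in Control libraries. Its longest stretch without a peak was 10.9 and 40.6 kb in IAA libraries, against 62.4 and 149 kb in Control libraries, the last being nearly the whole gene. CDK12 (chromosome 17, 39461486 to 39567559) held 16 and 15 peaks in IAA libraries, against 4 and 1 in Control libraries. Its longest empty stretch was 19.8 and 20.0 kb in IAA libraries and 71.8 and 105 kb in Control libraries, so these 2 serine 2 kinase genes carried peaks spread along the body in IAA libraries. CDK7 (chromosome 5, 69234795 to 69277430) held 11 and 8 peaks in IAA libraries, against 3 and 1 in Control libraries. ABL1 (chromosome 9, 130713043 to 130887675) held 12 and 14 peaks in IAA libraries, against 1 and 0 in Control libraries. CCNK (chromosome 14, 99481409 to 99512440) held 6 and 5 peaks in IAA libraries, against 4 and 0 in Control libraries. None of these 5 genes overlapped between IAA and Control.

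Interior peaks of the longer kinase genes ranked below the middle of the IAA lists. In the IAA libraries the median interior peak of CDK13 was 298 and 311 bp wide, with a deposited fold of 4.83 and 4.30 and a rank at 56.5% and 61.7% of the list. In CDK12 the median interior width was 303 and 318 bp, with a deposited fold of 4.29 and 3.73. ABL1 interior peaks ranked lower, at 81.2% and 83.4% of the list, and were 263 and 269 bp wide. The deposited fold and rank are the authors' values within each list and are not compared between lists. Divided by the length of the window, density in the IAA libraries was 2.09 and 1.52 peaks per 10 kb in CDK7, 1.69 and 1.51 in CDK13, 1.38 and 1.29 in CDK12, and 0.650 and 0.758 in ABL1, so ABL1 was the sparsest of the kinase genes. Counting any summit more than 1 kb inside both gene ends, CCNK and CTDSP2 had interior peaks in each IAA list and in no Control list, 2 of 10 members against 19.7% of genes over 2 kb, and 0 members showed the reverse, against 0.155%. Without Ser2P Control replicate 1 the number was 8, and with summits within 1 kb of a gene's own listed starts left out it was 4, CCNK, CTDP1, CTDSP2 and ABL1.

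Among the phosphatases, CTDP1 (chromosome 18, 79676768 to 79756625) held 13 and 10 Ser2P peaks in IAA libraries, against 3 and 0 in Control libraries. SSU72 (chromosome 1, 1541673 to 1574863, minus strand) held 7 and 9 peaks in IAA libraries, against 6 and 2 in Control libraries. CTDSP2 (chromosome 12, 57819927 to 57846729, minus strand) held 6 and 5 peaks in IAA libraries, against 3 and 1 in Control libraries. In these 3 genes every IAA value exceeded every Control value. RPAP2 (chromosome 1, 92299059 to 92402056) held 4 and 5 peaks in IAA libraries, against 2 and 1 in Control libraries. Although 103 kb long, RPAP2 had 0.354 and 0.442 peaks per 10 kb in IAA libraries, below every other member, and empty stretches of 65.6 and 71.6 kb in IAA libraries against 75.1 and 103 kb in Control libraries. CTDSP1 (chromosome 2, 218396351 to 218405941) was the exception to the pattern, with 6 and 4 peaks in IAA libraries and 5 and 3 in Control libraries, which overlap. It is the shortest member at 9.59 kb.

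Base pairs under Ser2P peaks were higher in both IAA libraries for all 10 members, CTDSP1 included, a call met by 61.7% of all genes. Control peaks mostly recurred in the IAA lists, since each IAA library shared a peak with 77.8% of the 36 member peaks of Control replicate 1 and 90.0% of the 10 of Control replicate 2. The 2 IAA lists shared 68.5% and 73.7% of their member peaks with each other, whereas 23.1% and 25.3% were shared with Control replicate 1.

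Total Pol II and Tyr1P gave few peaks per gene. Members together held 14 and 19 Pol II peaks in IAA libraries, against 18 and 18 in Control libraries, and 21 and 19 Tyr1P peaks in IAA libraries, against 21 and 18 in Control libraries. For Pol II, 0 members had more peaks in both IAA libraries, against 3.65% of all genes, and CCNK and CTDP1 had fewer, 2 of 10 against 10.1%. With peaks within 1 kb joined there were 0 such calls, and without Pol II IAA replicate 2 there were 4 calls of fewer. For Tyr1P, 0 members had more peaks, against 4.54%, and 0 had fewer, against 12.6%. Leaving out a library gave 0 to 2 Tyr1P calls in either direction.

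**Figure D2:**
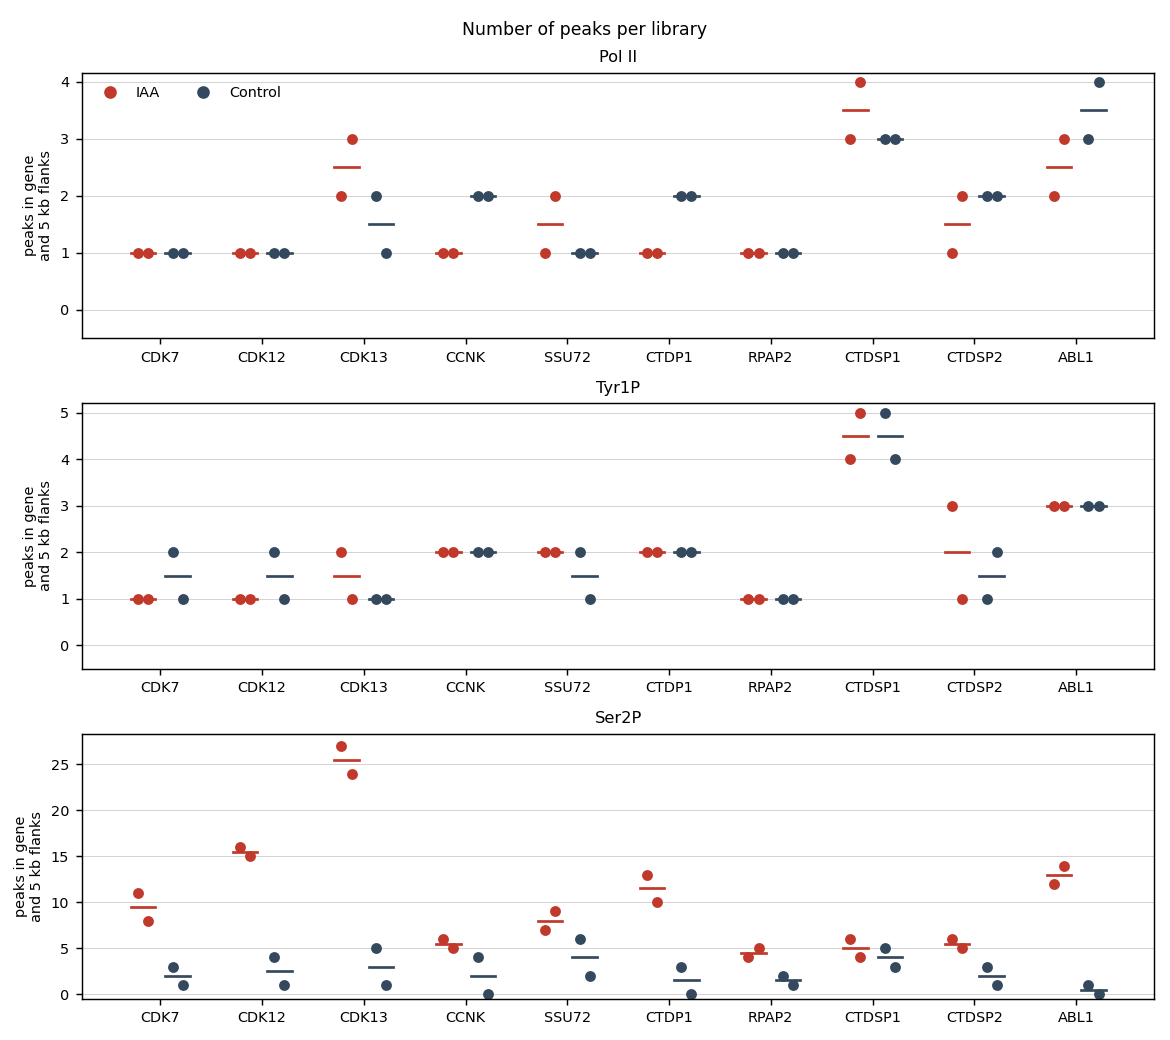
Number of peaks in each gene and its 5 kb flanks for Pol II, Tyr1P and Ser2P, with points for libraries (IAA in red left of Control in blue) and short lines for the mean of 2. Ser2P IAA points lie above Control points for every gene except CTDSP1, while Pol II and Tyr1P counts run from 1 to 5 with most groups overlapping.

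Start peaks were compared by height, the fragments stacked at the summit divided by the background of the same list. The highest peak within 1 kb of a start was taken. A gene's starts were its listed starts and the start of its RefSeq span, which for ABL1 is the upstream start. Over all genes with a start peak in all 4 lists, the median log2 ratio of IAA over Control was −0.78 for Pol II and −0.83 for Tyr1P, and over members −0.65 and −0.75. Pol II height was lower in both IAA libraries for 6 of 10 members, CDK7, CDK12, CDK13, SSU72, CTDP1 and CTDSP2, against 70.0% of 8598 genes, and higher for CCNK and CTDSP1, against 5.49%. Tyr1P height was lower for 7 members, against 90.3% of 10064 genes, and higher for CTDSP1 and ABL1, against 2.37%. Ser2P start height was higher in both IAA libraries for all 6 members with a start peak in every list, against 91.7% of 7233 genes.

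Start heights were also divided by the median start height of the same list, a scaling chosen after the data had been seen. Calls then went both ways, among the members as among all genes. Pol II was then lower in both IAA libraries for SSU72 and CTDSP2 (34.6% of genes) and higher for CDK12, CCNK, RPAP2, CTDSP1 and ABL1 (38.6%). Tyr1P was lower for CDK12, SSU72 and CTDSP2 (33.6%) and higher for CDK7, CDK13, CCNK, RPAP2, CTDSP1 and ABL1 (40.2%). The scaling turned the direction for CDK12 with Pol II and for CDK7, CDK13 and RPAP2 with Tyr1P. Ser2P was higher for CDK13 and CTDSP1 (25.7%) and lower for CDK7 (36.3%), 3 of the 6 members compared. SSU72 and CTDSP2 were lower and CTDSP1 was higher under both scalings with Pol II and with Tyr1P.

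**Figure D3:**
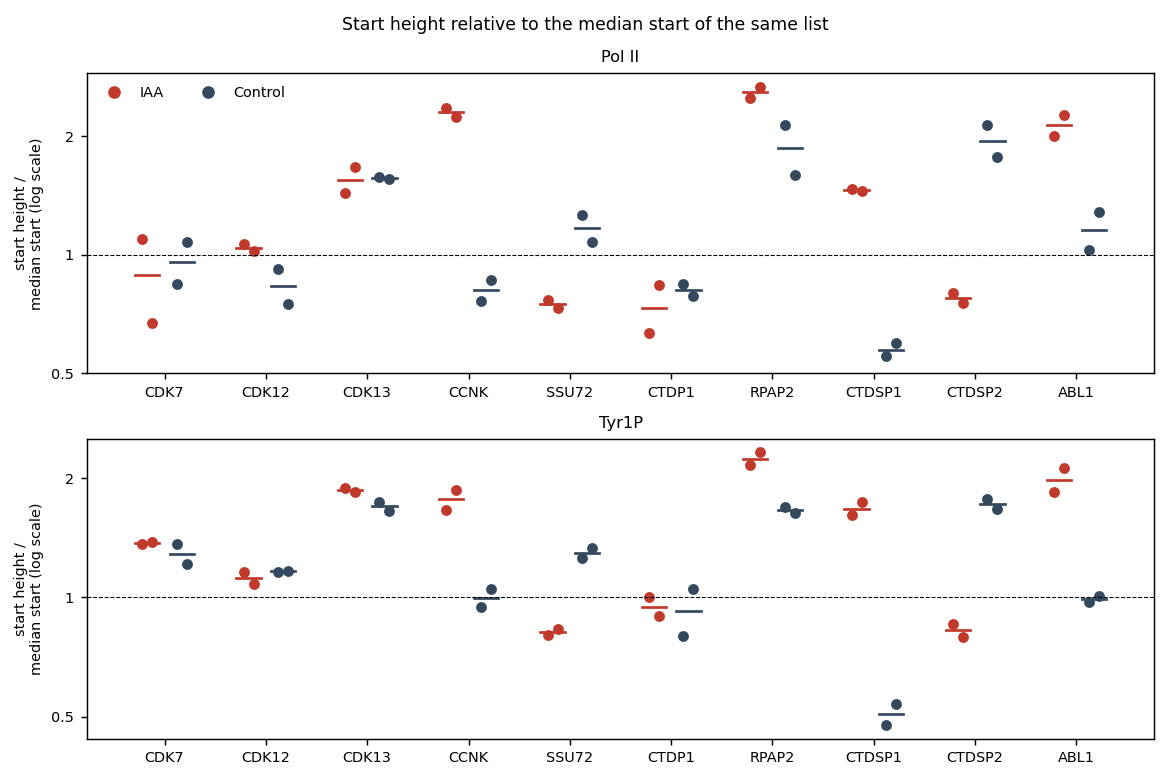
Start height of Pol II and Tyr1P divided by the median start height of the same list, on a log2 axis with 1 as the dashed line, IAA (red) left of Control (blue), points for libraries and short lines for means. CTDSP1 and CCNK lie above 1 in IAA and near or below 1 in Control, and CTDSP2 lies below 1 in IAA and between 1.67 and 2.13 in Control.

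CDK7 had a Pol II start height of 33.4 and 27.5 in IAA libraries, against 57.3 and 60.4 in Control libraries. Its Tyr1P height was 65.6 and 68.0 in IAA libraries, against 124 and 104 in Control libraries, and neither overlapped. CDK12 had Pol II heights of 32.4 and 41.7 in IAA libraries, against 62.7 and 42.1 in Control libraries, where the second IAA value lies just below the lower Control value. Its Tyr1P heights of 55.6 and 53.2 in IAA libraries were clear of 106 and 100 in Control libraries. CDK13 is transcribed away from the long noncoding RNA CDK13-DT, and its highest Pol II start summit lay 97 and 91 bp inside CDK13-DT in IAA libraries and 58 and 23 bp inside it in Control libraries. The height there was 43.5 and 68.3 in IAA libraries, against 108 and 87.4 in Control libraries. These values therefore describe the shared promoter rather than the CDK13 start alone.

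CCNK, the cyclin of both serine 2 kinases, stood apart for Pol II. Its start height was 71.9 and 91.7 in IAA libraries, against 52.0 and 48.5 in Control libraries. The log2 ratio of 0.70 exceeded that of 98.0% of the genes compared. The deposited rank of this peak in its own list was 3.16% and 3.25% in IAA libraries and 32.8% and 22.2% in Control libraries. The peak on the other side of the promoter went the other way in the numbered libraries. Both Pol II Control lists held a peak at −631 and −639 bp from the CCNK start, with heights of 41.2 and 28.0, and neither IAA list held one. It lay 81 and 89 bp downstream of the nearest listed start of SETD3. Each unnumbered Pol II list, whatever its label, held 2 start peaks at CCNK. Tyr1P showed the SETD3 peak in every library, at heights of 21.9 and 21.2 in IAA libraries and 48.4 and 45.1 in Control libraries. Tyr1P at the CCNK start itself was 80.0 and 92.4 in IAA libraries and 85.8 and 90.2 in Control libraries, which overlap. The fewer Pol II peaks counted for CCNK are this peak at the SETD3 start. The annotated span of SETD3, on the minus strand, also contains the CCNK start, and the 2 transcripts cannot be told apart in these data.

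ABL1, the tyrosine 1 kinase, has 2 start peaks 122 kb apart, and they differed. At the upstream start the Pol II height was 60.7 and 92.5 in IAA libraries, against 62.7 and 48.5 in Control libraries, which overlap. At the downstream start, printed above, it was 31.4 and 45.0 in IAA libraries, against 69.9 and 72.3 in Control libraries, which do not. Tyr1P at the upstream start was 88.8 and 105 in IAA libraries, against 88.7 and 86.8 in Control libraries, with the first IAA value level with the first Control value. Tyr1P at the downstream start was 38.8 and 43.6 in IAA libraries, against 60.9 and 55.9 in Control libraries. The highest Pol II start peak was the upstream one in both IAA libraries and the downstream one in both Control libraries, so the per-gene values compare different starts. Ser2P had a peak at both starts in both IAA libraries, with heights of 30.2 and 26.5 at the upstream start and 34.6 and 30.4 at the downstream one. In Control libraries 1 Ser2P peak was present, in replicate 1 at the downstream start, with a height of 8.68.

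SSU72 was low at its start in the numbered Pol II and Tyr1P IAA libraries. Its Pol II height was 23.3 and 30.0 in IAA libraries, against 86.0 and 60.4 in Control libraries. Its Tyr1P height was 38.8 and 41.1 in IAA libraries, against 114 and 114 in Control libraries, with a log2 ratio of −1.52 below all but 4.60% of genes. The SSU72 summits mostly lay upstream of the start, on the side of the antisense RNA SSU72-AS1, and without strand in the data the 2 transcripts cannot be told apart. A further peak upstream of SSU72 appeared in IAA lists: Tyr1P summits at −2552 and −2646 bp with heights of 20.6 and 28.2, and Ser2P summits at −2656 and −2619 bp with heights of 63.3 and 57.7. No Tyr1P or Ser2P Control list held a peak there.

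CTDP1 had Pol II heights of 19.2 and 34.2 in IAA libraries, against 57.3 and 44.2 in Control libraries. This highest summit lies inside the divergent CTDP1-DT, at −617 and −760 bp from the nearest CTDP1 start in IAA libraries and −675 and −653 bp in Control libraries. A second Pol II peak at the CTDP1 start was present in both numbered Control lists, with heights of 26.9 and 24.8, and in neither numbered IAA list. The unnumbered lists labelled Control, IAA and EGF each held 2 start peaks at CTDP1, and the IAA+EGF list held 1. RPAP2 overlaps the annotated span of GLMN, transcribed the other way, and the summit lay 153 and 158 bp downstream of the nearest listed GLMN start in IAA libraries and 65 and 72 bp in Control libraries. Its Pol II height was 75.9 and 109 in IAA libraries, against 145 and 89.5 in Control libraries, which overlap. Tyr1P there was 104 and 115 in IAA libraries, against 154 and 141 in Control libraries.

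The 2 small phosphatase genes went in opposite directions. CTDSP1 had a Pol II peak near its first listed start in both IAA libraries, at 82 and 8 bp with heights of 44.5 and 59.2, and no Pol II peak there in either Control list. That start, at 218396351, lies inside the annotated span of SLC11A1, which ends at 218396894. Signal of either gene cannot be told apart there, for any of the antibodies. The highest Pol II Control start peaks of CTDSP1, 37.6 and 33.4, lay at other listed starts, of which CTDSP1 has 7. Tyr1P at CTDSP1 was 77.5 and 86.0 in IAA libraries, against 43.3 and 46.4 in Control libraries, also partly at different starts. Its log2 ratio of 0.87 exceeded that of 99.9% of genes. Ser2P at the first listed start was 148 and 131 in IAA libraries, against 29.2 and 31.5 in Control libraries. By the highest start peak, which in Control replicate 2 had a height of 37.3 at another listed start, the log2 ratio of 2.07 exceeded that of 99.4% of genes. At the other end of CTDSP1 Pol II was lower, with a peak of height 23.3 and 30.8 in IAA libraries against 66.3 and 58.3 in Control libraries. Tyr1P at that end was 52.5 and 51.3 in IAA libraries, against 96.8 and 89.5 in Control libraries. Ser2P at that end was 167 and 162 in IAA libraries, against 115 and 198 in Control libraries, which overlap, and this peak stood at rank 120 and 55 of the IAA lists and 10 and 32 of the Control lists.

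CTDSP2 had the largest fall among the members in the numbered Pol II and Tyr1P libraries. Its Pol II start height was 24.3 and 30.8 in IAA libraries, against 145 and 99.2 in Control libraries. The log2 ratio of −2.15 lay below all but 0.686% of genes. Tyr1P was 41.3 and 39.1 in IAA libraries, against 161 and 144 in Control libraries, with a log2 ratio of −1.92 below all but 0.427% of genes. The peak lay at −664 and −651 bp for Pol II in IAA libraries and at −519 and −550 bp in Control libraries, upstream of the only listed CTDSP2 start. A smaller Pol II peak just inside the gene was listed in IAA replicate 2 with a height of 20.8, and in the Control lists with heights of 46.6 and 27.0. Ser2P gave 1 start peak in each IAA list, at −177 and −148 bp with heights of 72.5 and 69.9. Ser2P Control replicate 1 held 2 start peaks, the higher at 864 bp with a height of 12.5, and Ser2P Control replicate 2 held 0.

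**Figure D4:**
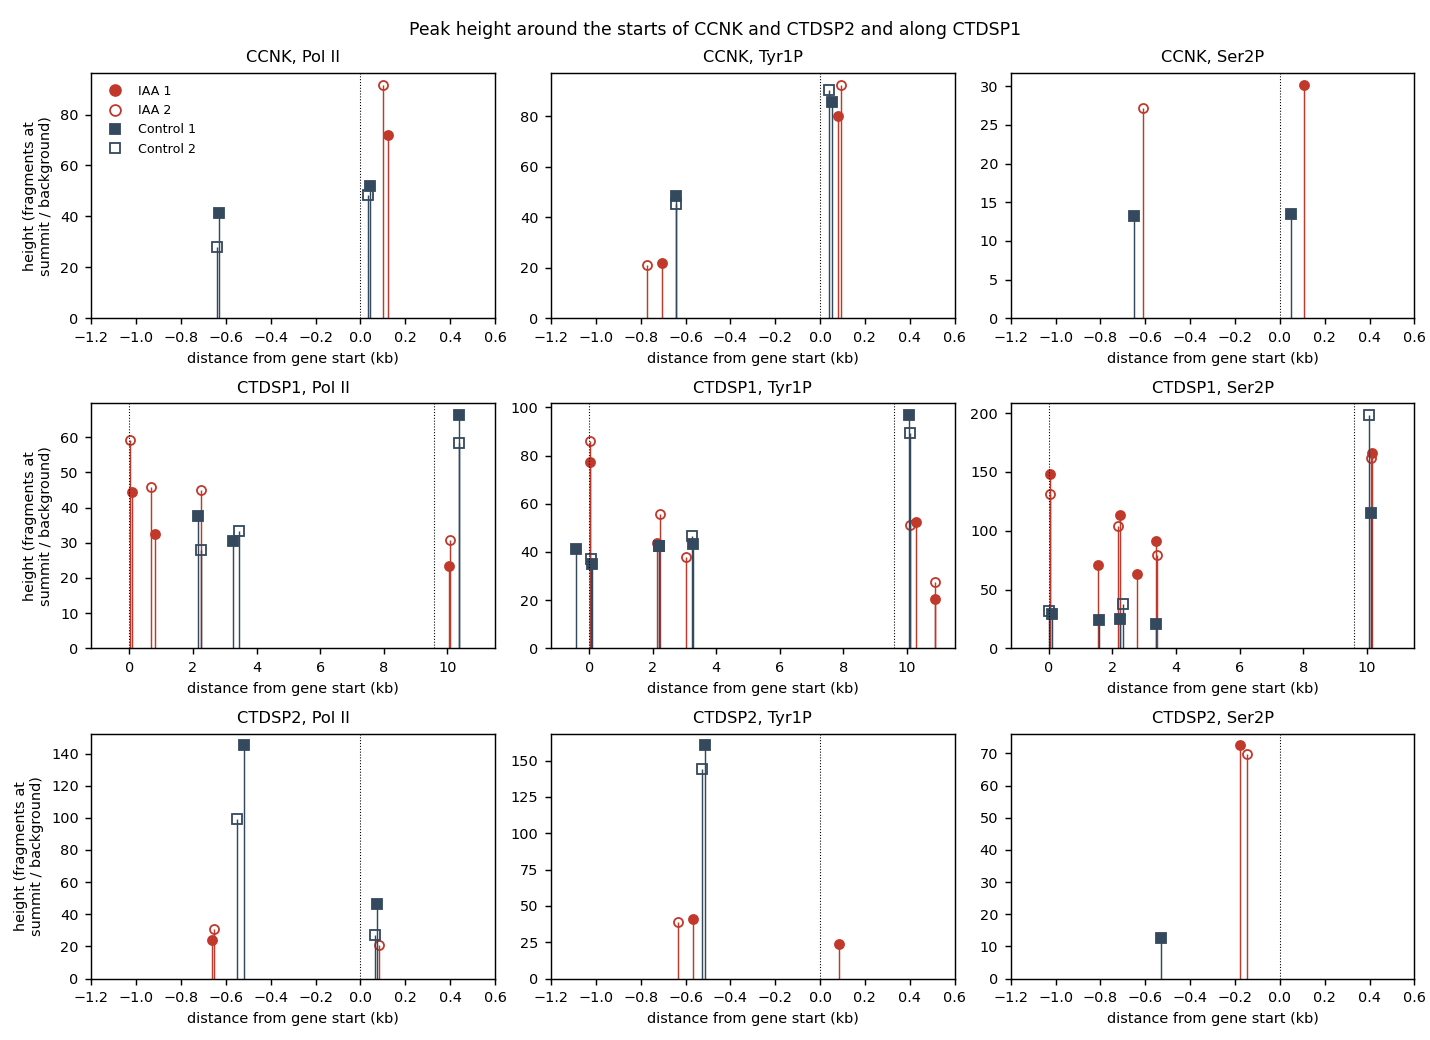
Summit height in fragments over background against distance from the gene start in kb, for CCNK and CTDSP2 near their starts and CTDSP1 along the gene, by antibody, IAA as circles and Control as squares with replicate 2 open. CCNK carries the higher Pol II peak in IAA inside the gene and the SETD3-side peak in Control, and the CTDSP2 peak upstream of the start is tallest in Control, at 145 and 99.2.

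The distance of the highest start summit from the nearest of these starts, listed or of the RefSeq span, was also compared. For Pol II it was larger in both IAA libraries for 7 of 10 members, against 60.4% of genes, and smaller for 0, against 8.55%. For Tyr1P it was larger for 6, against 57.8%, and smaller for CTDSP1, against 9.71%. The median difference over members was 46.8 bp for Pol II and 40.8 bp for Tyr1P, and over all genes 44.5 and 31.5 bp. The distance has no sign. Of the 7 members called for Pol II, CDK13, RPAP2 and CTDSP2 had summits upstream of the start, and farther upstream in IAA libraries. RPAP2 summits, for example, lay at −225 and −230 bp in IAA libraries, against −137 and −144 bp in Control libraries. The ABL1 call compares different starts. CDK7 Pol II summits lay at 88 and 139 bp in IAA libraries, against 75 and 71 bp in Control libraries. CDK12 summits lay at 89 and 121 bp in IAA libraries, against 51 and 53 bp in Control libraries, the Control summits being just past the downstream edge of the printed window. CCNK summits lay at 123 and 100 bp in IAA libraries, against 41 and 32 bp in Control libraries, so that the Control summits fall within the printed window and the IAA summits beyond it. At the ABL1 downstream start Pol II summits lay at 221 and 196 bp in IAA libraries, against 62 and 60 bp in Control libraries.

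**Figure D5:**
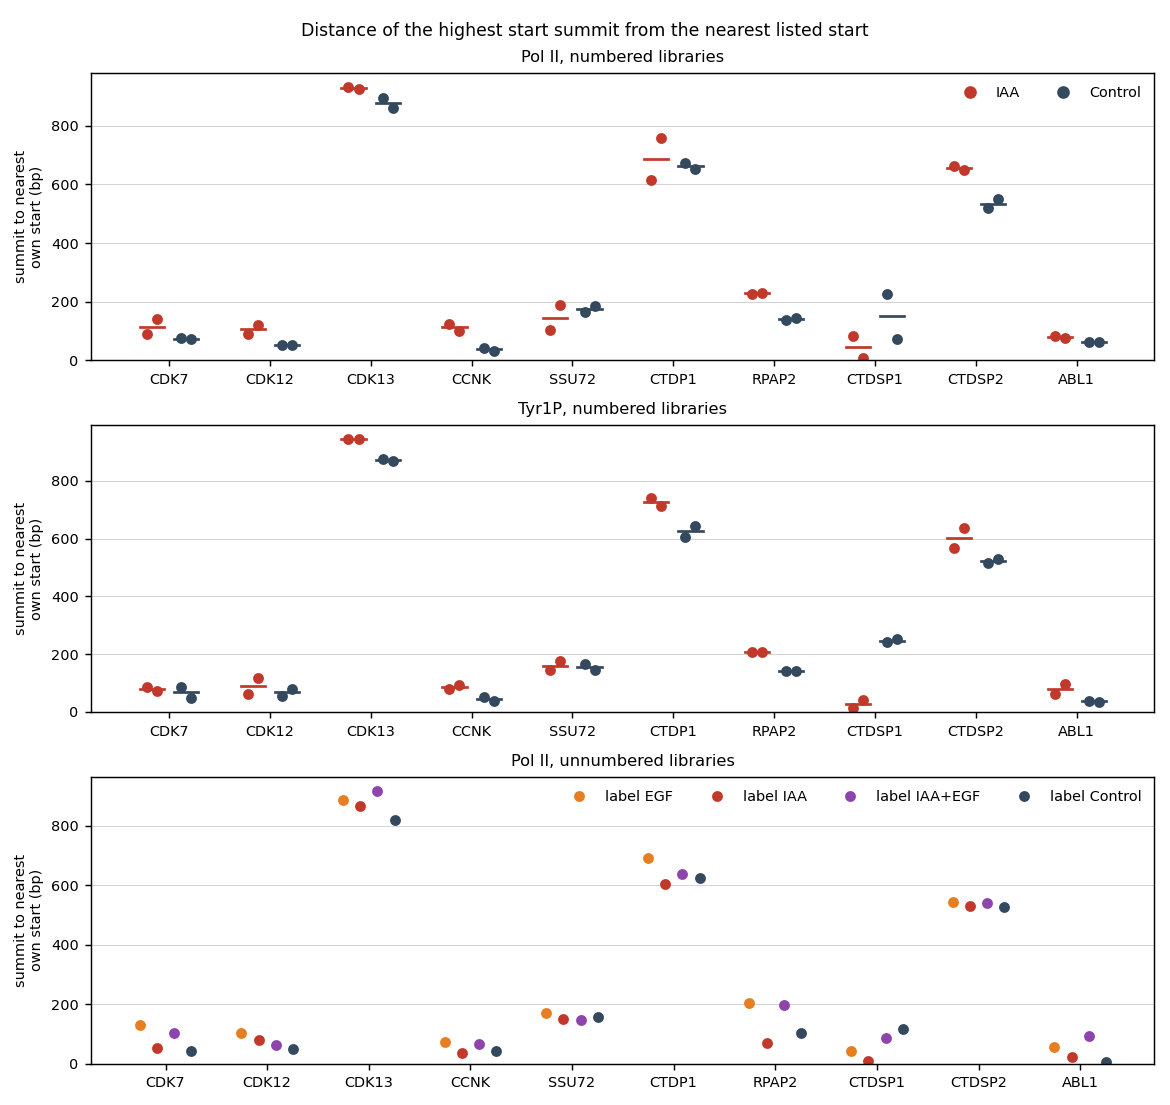
Distance in bp from the highest start summit to the nearest start of the gene, listed or of its RefSeq span. Numbered Pol II and Tyr1P libraries are shown with IAA (red) left of Control (blue) and short lines for means, and the 4 unnumbered Pol II libraries by label. CDK13, CTDP1 and CTDSP2 summits lie farther from their own starts than those of the other genes, and the library labelled EGF lies above the library labelled IAA in all 10 genes.

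In the unnumbered Pol II libraries there is 1 library per label, so differences have no replicate check. By a difference of at least 2 peaks and 1.5 times, CTDSP1 had more peaks in the library labelled EGF than in Control, 6 against 4 (0.921% of genes), and SSU72 had fewer, 1 against 3 (7.76%). The start summit was farther in the library labelled EGF than in the library labelled IAA for 10 of 10 members, against 74.3% of 9967 genes, and farther than in Control for 9 of 10, against 75.2%. It was farther in the library labelled IAA than in Control for 5 of 10, against 50.9%. It was farther in the IAA+EGF library than in the library labelled IAA for 8 of 10, against 71.2%, and than in the library labelled EGF for 3 of 10, against 44.5%. CDK7 summits lay at 129 bp (labelled EGF), 52 bp (labelled IAA), 103 bp (IAA+EGF) and 44 bp (Control). Start height was lower in the library labelled IAA than in Control for 3 of 10 members and 1871 of 9967 genes, with a median log2 ratio of 0.21 over those genes. For the library labelled EGF it was lower for 7 of 10 members and 7180 genes, with a median of −0.19. The numbered Pol II libraries gave a median of −0.78. SSU72 heights were 69.0 (labelled EGF), 123 (labelled IAA), 85.7 (IAA+EGF) and 102 (Control). CTDSP2 heights were 51.6 (labelled EGF), 118 (labelled IAA), 38.8 (IAA+EGF) and 113 (Control). CCNK heights were 80.4 (labelled EGF), 94.9 (labelled IAA), 65.7 (IAA+EGF) and 81.7 (Control). CDK7 heights were 95.5 (labelled EGF), 84.3 (labelled IAA), 81.9 (IAA+EGF) and 86.8 (Control), so the order of the labels differed between these genes.

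Among 32 other genes for CTD kinases, phosphatases, regulators and readers, Ser2P peaks were more numerous in both IAA libraries for 27, against 51.4% of all genes, and fewer for 0, against 0.416%, with a median difference of 4.75. All of these genes but CTDSPL had a Pol II peak near an end in both Control lists. In that class the call of more peaks was met by 64.9% of genes, with a median difference of 2.5. Among genes of that class of at least 20 kb, a length that most of the 32 reach, it was met by 75.3%, with a median difference of 4. The largest differences were 19.0 peaks in CTDSPL2, a further small phosphatase gene, 16.5 in SETD2, a histone methyltransferase that binds the phosphorylated CTD, 15.5 each in RPRD1A and RPRD2, 11 in MNAT1, the assembly factor of the CDK7 kinase complex, and 10.5 each in PPP1CB and SCAF8. CCNH, CDK9, PPP1CA, PPP1R10 and SYMPK did not separate. For Pol II, PPP1CB, PPP2CA and SCAF4 had more peaks (3.65% of all genes) and CDK9, SYMPK and PCF11 fewer (10.1%). For Tyr1P, CCNL1, PPP1CB and SCAF8 had more peaks (4.54%) and PPP1CC, PPP1R10, SYMPK and PCIF1 fewer (12.6%).

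Covered base pairs, on the scale log2(bp + 100), gave each member its nearest genes over all 16 libraries, as a description. CDK12 was most like SHTN1 (r = 0.994) and NIPBL (r = 0.990), CDK13 most like URB1 (r = 0.997), and CDK7 most like LRP2BP (r = 0.989). SSU72 was most like NENF (r = 0.978) and CTDSP1 most like MKX (r = 0.950), the lowest of the leading values. All of these libraries share the steps in list length and depth between Ser2P IAA, Ser2P Control and the other antibodies.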

How the data were processed

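ChIP-seq peak lists of 18 libraries were used, each called on its own library. MACS2 2.2.7.1 is named per the submitters' processing notes, as are hg38, deepTools 3.5.1, Bowtie2 2.3.4.1, Trim Galore 0.6.6 and Picard 2.25.7. Their options are not given in the sources read here. In each list the authors deposited for each peak a score, a fold enrichment at the summit (a ratio), −log10 p and −log10 q values and the summit position. The deposited fold and −log10 values were used within their own list.

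Fragments at each summit were solved from the deposited fold and −log10 p, matching at least 99.9% of the peaks of every immunoprecipitated list, and divided by the lowest background shared by at least 1% of the list. The lists hold no read totals, so depth is an estimate. Each list has an upper limit on fragments per summit, and member summits reached at most 84.9% of it. Peaks were assigned with 1 bp of overlap to RefSeq genes with 5 kb flanks. Start peaks lie within 1 kb of a listed start or of the start of the gene's RefSeq span. Of the genes, 4161 lack a listed start. A call needs both IAA libraries beyond both Control libraries. Python 3.11.15, numpy 2.4.6, pandas 2.3.3, SciPy 1.17.1 and matplotlib 3.10.9 were used, and the solving and calling steps were tested on simulated data.

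Groups came from the library titles. All 10 members are described. Of 32 other CTD genes, those with the 6 largest non-overlapping Ser2P differences are named, with a tie at the last place kept. All with a Pol II or Tyr1P call are named, although up to 3 each had been planned. Likeness gives the genes with the highest r. Members and lists were chosen with earlier results of these data known. Alternatives covered list length, threshold, flank, assignment, scaling and replicates.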

Additional observations from a re-analysis of the deposited data

Results flagged for a closer look

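The effect of IAA against Control had opposite directions for 2 antibodies in the members below, with the groups not overlapping for either antibody. These differences between antibodies were not tested, and the antibodies' lists differ in length and depth.

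In peak number, the Ser2P effect exceeded the Pol II effect by 4.5 peaks in CCNK and by 11 peaks in CTDP1, since Ser2P gave more peaks and Pol II fewer in IAA libraries. In start height, the Ser2P log2 ratio of IAA over Control exceeded that of Pol II by 1.70 in CDK7, 1.48 in CDK12, 2.01 in CDK13 and 2.60 in SSU72. It exceeded that of Tyr1P by 1.53 in CDK7, 1.90 in CDK12, 1.94 in CDK13, 2.66 in SSU72 and 1.54 in RPAP2. Over all genes compared, the median log2 ratio was 0.96 for Ser2P, −0.78 for Pol II and −0.83 for Tyr1P, so genes in general show such a gap. With heights divided by the list's median, Ser2P called CDK7 lower and, of the other 4 members named for height, CDK13 higher. Pol II then called CDK12 higher and SSU72 lower, with no call for CDK7 and CDK13. Tyr1P called CDK7, CDK13 and RPAP2 higher and CDK12 and SSU72 lower. No height contrast above, Ser2P higher with the other antibody lower, was left under this scaling.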

How the results depend on the processing

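Leaving out a library in turn could not end a call, since a call needs both IAA libraries beyond both Control libraries. It is therefore no check of the calls, and the counts it gives could only stay or rise. Differences that were no call could fall to 0 or turn, as for Tyr1P at CTDSP2 (0.5 as reported, −0.5 without IAA replicate 1). Equal-length lists left 1 member with more Ser2P peaks (6.25% of all genes) and 1 with interior Ser2P peaks gained, for which the share over all genes was not computed. They gave 1 member with more (5.40%) and 3 with fewer (7.16%) Pol II peaks, and 1 with more Tyr1P peaks (7.98%). At −log10 q of at least 5, 4 members had fewer Pol II peaks, 1 had more Tyr1P peaks, and 1 unnumbered call was left of 2. Without flanks 1 member had more and 1 had fewer Pol II peaks. Joining peaks within 1 kb left 0 with fewer Pol II peaks and gave 1 each with fewer Tyr1P and fewer Ser2P peaks. By covered bp, 3 members had more and 3 fewer Pol II bases (11.1% and 26.0% of all genes), and 3 more and 3 fewer Tyr1P bases (12.5% and 33.9%).

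These alternatives were chosen after seeing the data. Leaving out own listed starts gave 4 interior gains. Scaling start height by the list's median left 2 members lower for Pol II, 3 for Tyr1P and 1 for Ser2P, and 5, 6 and 2 higher. A 500 bp window left 3 lower for Pol II and 3 farther for Tyr1P.

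For the pairing of IAA and Control libraries by replicate number, r was 0.035 (Pol II), 0.037 (Tyr1P) and −0.033 (Ser2P), over 14947, 15858 and 15948 genes. These r values do not say how alike the lists are: Pol II IAA replicate 1 shared 85.7% of its 14 member peaks with Pol II Control replicate 1. With the replicate block, 10 members had more Ser2P peaks, 3 fewer Pol II peaks and 1 a nearer Pol II summit.

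Leaving out each library in turn gave 0 to 3 members with more Pol II peaks (3 without IAA replicate 1, 1 without Control replicate 1), 2 to 4 with fewer (4 without IAA replicate 2), 0 to 2 with more Tyr1P (2 without IAA replicate 2) and 0 to 2 with fewer (2 without Control replicate 2). It gave 9 to 10 with more Ser2P peaks and 2 to 8 interior gains (8 without Control replicate 1). Start height was lower in 6 to 8 and higher in 2 to 3 for Pol II, lower in 7 to 8 and higher in 2 to 3 for Tyr1P, and higher in 6 to 10 for Ser2P (10 without Control replicate 2, when all members had a start peak). The start summit was farther in 7 to 9 (Pol II) and 6 to 8 (Tyr1P), and nearer in 0 to 2 and 1 to 2. By the rule for a call, none of these counts could fall below the one reported. The causes were not tested. The planned comparison of the deposited fold was not run. Estimated depth was lowest in Pol II Control replicate 1 and Ser2P Control replicate 2, at 2.94 and 3.28 fragments per kb, where a missing peak does not show that signal is absent.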
